A study of Mus musculus with 2 samples.

Results

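The let-7 copies a, c and f are microRNA genes whose main mature sequence is encoded at 2 loci of the mouse genome. They were taken as the rows of both count tables whose Ensembl identifier carries the GENCODE M21 symbol Mirlet7a-1, Mirlet7a-2, Mirlet7c-1, Mirlet7c-2, Mirlet7f-1 or Mirlet7f-2, which gave 6 of 2202 microRNA genes. The microRNA libraries were made from hippocampal tissue of B6CASTF1/J females aged 14 days, F1 animals of a cross between C57BL/6J and CAST/EiJ, with no treatment or engineered allele named in the labels. There was 1 group with 2 biological replicates, each a pool labelled with 3 females and sequenced as 1 library, and the labels do not say which layer of the hippocampus was taken. No contrast between conditions exists in this design, and pool and preparation of the library vary together here and cannot be told apart.

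A microRNA gene is transcribed into a hairpin, which Drosha and then Dicer cut into a short duplex with a 5p arm and a 3p arm. For let-7 the 5p arm is the one mainly loaded into Argonaute proteins, and its seed, bases 2 to 8, pairs with messenger RNAs such as those of Lin28, Hmga2 and Ras genes. The LIN28 proteins bind let-7 precursors and block their processing in early cells, and mature let-7 accumulates as neural tissue differentiates.

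The mature sequences show which copies can be told apart by a read. They are credited to RefSeq on GRCm38.p6 and are printed 5′ to 3′ in lower case with the seed in capitals. All 6 genes were found in the RefSeq table. For Mirlet7a-2 the table held the 3p arm, and the let-7a 5p arm was located in its hairpin by sequence. The 5p arms of the 3 pairs share the seed GAGGUAG:
let-7a-5p: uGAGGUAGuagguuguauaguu
let-7c-5p: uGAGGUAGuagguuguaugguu
let-7f-5p: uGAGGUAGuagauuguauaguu
Counted from 1 at the 5′ end, let-7c differed from let-7a by A19G and let-7f by G12A. Each 5p arm occurred whole at 2 loci, those of its own pair, among the microRNA genes of the table. These sequences are of the C57BL/6J reference, and the bases of the CAST/EiJ chromosomes were not examined.

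The 3p arms differed more, and they are shown because 4 of the 6 occur at 1 microRNA locus. Grouped by seed they are:
let-7a-1-3p: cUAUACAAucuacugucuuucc
let-7c-2-3p: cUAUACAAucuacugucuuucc
let-7f-1-3p: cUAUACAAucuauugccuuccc
let-7f-2-3p: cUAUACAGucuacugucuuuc
let-7a-2-3p: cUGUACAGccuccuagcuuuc
let-7c-1-3p: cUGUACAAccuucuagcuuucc
The 3p arms of Mirlet7a-1 and Mirlet7c-2 were identical over their 22 bases, so these copies shared 1 arm with their partner and the other arm with each other. The 3p arms of the other 4 copies were found in no other microRNA gene. Within the pairs, 3p arms differed at 6 of 21 compared positions for let-7a, at 5 of 22 for let-7c and at 4 of 21 for let-7f.

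Next to the 5p arm the copies part. The following lines give the 5p arm in lower case and the next 8 bases of the hairpin in capitals, because these bases are what a longer read would have to reach:
Mirlet7a-1: ugagguaguagguuguauaguuUUAGGGUC
Mirlet7a-2: ugagguaguagguuguauaguuUAGAGUUA
Mirlet7c-2: ugagguaguagguuguaugguuUUGGGCUC
Mirlet7c-1: ugagguaguagguuguaugguuUAGAGUUA
Mirlet7f-2: ugagguaguagauuguauaguuUUAGGGUC
Mirlet7f-1: ugagguaguagauuguauaguuGUGGGGUA
A read that starts at the first base of the 5p arm had to be 24 bases long in the let-7a and let-7c copies, and 23 bases in the let-7f copies, before its sequence was found at no other microRNA locus. For the other let-7 family genes 10 to 17 bases were enough. Of all stretches of 20 bases in the 6 annotated precursors, 395 of 437 (90.4%) were at no other microRNA locus. None of the 20-base stretches inside the 5p arm told any of the 6 copies from the rest, and for Mirlet7a-1 and Mirlet7c-2 none inside the 3p arm did. The whole genome was not searched, so a stretch called unshared here may still occur outside microRNA genes.

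**Figure D1:**
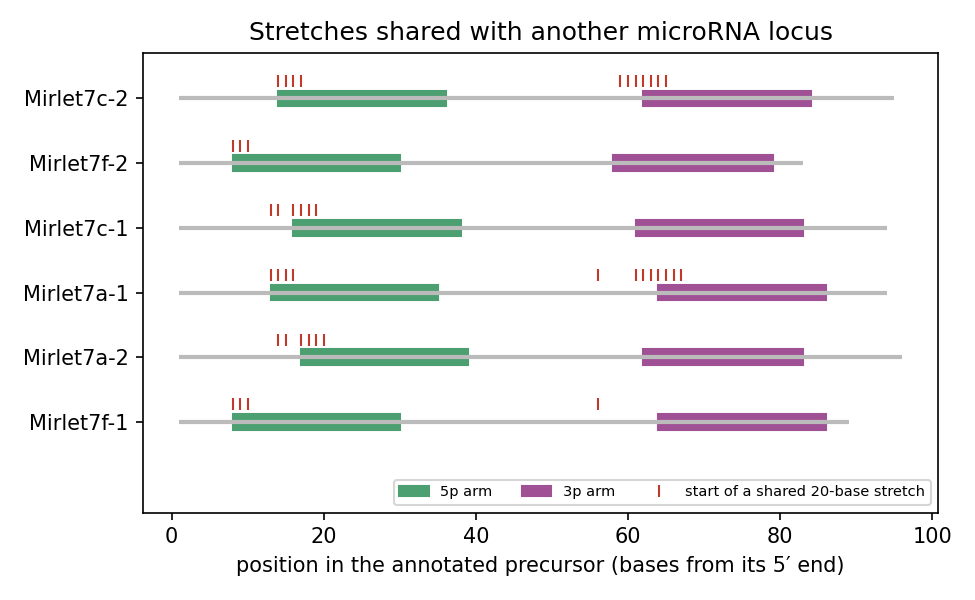
Map of the 6 annotated precursors, with position in bases from the 5′ end on the x axis, the 5p and 3p arms as coloured blocks, and each red mark at the start of a 20-base stretch also present at another microRNA locus. Marks lie over the 5p arm of all 6 copies and over the 3p arm of Mirlet7a-1 and Mirlet7c-2.

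The 6 copies lie on 5 chromosomes (GRCm38). Mirlet7a-1 (ENSMUSG00000065421.3) at chromosome 13, 48538179 to 48538272, and Mirlet7f-1 (ENSMUSG00000105621.1) at chromosome 13, 48537829 to 48537917, are on the minus strand in an exon of the non-coding gene 6720427I07Rik. Mirlet7c-2 (ENSMUSG00000065608.1) lies at chromosome 15, 85706603 to 85706697, plus strand, in an exon of the non-coding gene Lncppara. Mirlet7c-1 (ENSMUSG00000065557.3) lies at chromosome 16, 77599657 to 77599750, plus strand, in an intron of Mir99ahg, the host gene of Mir99a. Mirlet7a-2 (ENSMUSG00000092770.1) lies at chromosome 9, 41536716 to 41536811, plus strand, in introns of the non-coding genes 3110039I08Rik and Gm49317. Mirlet7f-2 (ENSMUSG00000065602.1) lies at chromosome X, 151912346 to 151912428, plus strand, in an intron of Huwe1, which encodes a ubiquitin ligase.

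Counts on the sense strand of microRNA genes summed to 4764797 in replicate 1 and 2852269 in replicate 2. Reads that mapped to several places had a line of their own in each table, with 5381960 reads (40.8% of all reads) in replicate 1 and 2911660 (37.1%) in replicate 2. Within each column, genes and these lines summed to the same total, so such a read is not in any gene count. How many of these reads were let-7 was not measured. Levels are CPM, the counts of a gene in each 1000000 counts assigned to microRNA genes, and a count of 0 allowed up to 0.630 CPM in replicate 1 and 1.05 in replicate 2. A gene's count joins the reads of both arms. Intervals are exact Clopper-Pearson 95% intervals and cover counting error only, since reads without molecular identifiers are not independent molecules. The labelled tissue was checked against microRNA markers. Of 8 neuronal markers 6 had at least 10 counts in both libraries, with a summed level of 21638 CPM in replicate 1 and 21852 in replicate 2. These near-equal sums join markers that differed between the libraries in both directions, as given further below. Among the neuronal markers, Mir124a-1, Mir124a-2, Mir124a-3, Mir128-1 and Mir138-1 belong to families with a mature sequence at several loci. Their counts hold only reads placed at 1 locus, so they are no full measure of these microRNAs. Of 5 muscle markers 1, Mir206, had at least 10 counts in both libraries, with 353 in replicate 1 and 98 in replicate 2. The 5 summed to 74.3 CPM in replicate 1 and 34.4 in replicate 2. The 3 at 0 in both, Mir1a-1, Mir133a-1 and Mir133a-2, are numbered copies, and reads that mapped to several places are in no gene count. Their counts of 0 therefore do not show that muscle RNA was absent. The 1 liver marker was detected too, at 41.1 CPM in replicate 1 and 25.6 in replicate 2.

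All 6 copies were detected, and together they held a small share of the assigned let-7 counts. The 6 copies had 37156 counts in replicate 1 and 16626 in replicate 2, or 0.780% (0.772 to 0.788) and 0.583% (0.574 to 0.592) of assigned counts. The mean share was 0.681% ± 0.139 (SD, n = 2). The 8 other let-7 family genes held 28.9% (28.9 to 28.9) in replicate 1 and 25.6% (25.5 to 25.6) in replicate 2. Of all let-7 family counts, the 6 copies thus made up 2.63% (2.60 to 2.65) in replicate 1 and 2.23% (2.20 to 2.26) in replicate 2. Their counts were 0.690% and 0.571% of the size of the multi-mapping line of the same library. These shares describe reads assigned to 1 gene, and they are no measure of how much mature let-7a, let-7c or let-7f the tissue held.

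Mirlet7c-2 led the 6 copies. It had 18490 counts (3881 CPM) in replicate 1 and 7597 counts (2663 CPM) in replicate 2. Its mean of 3272 ± 861 CPM (SD, n = 2) placed it at rank 54 of 2202 genes. It made up 49.8% of the counts of the 6 copies in replicate 1 and 45.7% in replicate 2, although neither of its arms holds a 20-base stretch of its own. Mirlet7f-2 was next, with 9875 counts (2072 CPM) in replicate 1 and 4601 counts (1613 CPM) in replicate 2, a mean of 1843 ± 325 CPM at rank 81. Mirlet7c-1 had 5808 counts (1219 CPM) in replicate 1 and 2871 counts (1007 CPM) in replicate 2, a mean of 1113 ± 150.2 CPM at rank 105.

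The remaining copies were several-fold lower. Mirlet7a-1 had 1528 counts (321 CPM) in replicate 1 and 804 counts (282 CPM) in replicate 2, a mean of 301 ± 27.4 CPM (SD, n = 2) at rank 166. Mirlet7a-2 had 883 counts (185 CPM) in replicate 1 and 486 counts (170.4 CPM) in replicate 2, a mean of 178 ± 10.6 CPM at rank 186. Mirlet7f-1 had 572 counts (120.0 CPM) in replicate 1 and 267 counts (93.6 CPM) in replicate 2, a mean of 107 ± 18.7 CPM at rank 207. All 6 stood above the floor by a wide margin in both libraries, and none had a count on the opposite strand in either.

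The order of the 6 copies was the same in both libraries, and no neighbours in it overlapped. The lowest Mirlet7c-2 library (2663 CPM) lay above the highest Mirlet7f-2 library (2072), the lowest Mirlet7f-2 (1613) above the highest Mirlet7c-1 (1219), and the lowest Mirlet7c-1 (1007) above the highest Mirlet7a-1 (321). Mirlet7a-1 at its lowest (282 CPM) lay above Mirlet7a-2 at its highest (185), and Mirlet7a-2 at its lowest (170.4) above Mirlet7f-1 at its highest (120.0). The step from Mirlet7c-1 down to Mirlet7a-1 was 3.8-fold in replicate 1 and 3.57-fold in replicate 2, and the other steps ran between 1.54-fold and 1.87-fold. From the first to the last copy the range was 32.3-fold in replicate 1 and 28.5-fold in replicate 2. Divided by the length of the annotated precursor, 83 to 96 bases, mean levels ran from 34.4 CPM per base for Mirlet7c-2 down to 1.20 for Mirlet7f-1 in the same order. The order was described and not tested.

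**Figure D2:**
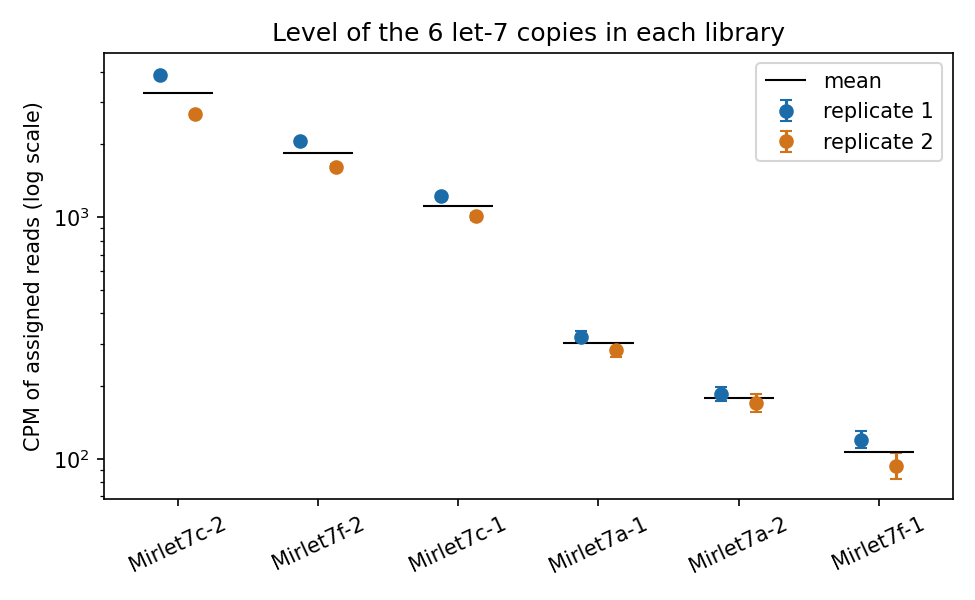
Level of each copy in CPM of assigned reads on a log axis, with a point for each library, its exact 95% counting interval, and a line at the mean of 2 libraries. Replicate 1 and replicate 2 give the same order, from Mirlet7c-2 at 3881 and 2663 CPM to Mirlet7f-1 at 120.0 and 93.6 CPM.

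Within each pair of loci the assigned counts were unequal, by a different amount in each pair. Of the let-7f counts, Mirlet7f-2 on chromosome X held 94.5% (94.07 to 94.95) in replicate 1 and 94.5% (93.8 to 95.1) in replicate 2, and Mirlet7f-1 the rest. Of the let-7c counts, Mirlet7c-2 held 76.1% (75.6 to 76.6) in replicate 1 and 72.6% (71.7 to 73.4) in replicate 2. Of the let-7a counts, Mirlet7a-1 held 63.4% (61.4 to 65.3) in replicate 1 and 62.3% (59.6 to 65.0) in replicate 2. The mean share was 94.5% ± 0.00675 for let-7f, 74.3% ± 2.49 for let-7c and 62.9% ± 0.743 for let-7a (SD, n = 2). The larger copy was the same in both libraries in all 3 pairs, at 17.3-fold and 17.2-fold over its partner for let-7f, 3.18-fold and 2.65-fold for let-7c, and 1.73-fold and 1.65-fold for let-7a.

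A share within a pair does not depend on how the libraries are scaled. It differed between the libraries for let-7c, by 3.52 percentage points, with an odds ratio of replicate 1 to replicate 2 of 1.20 (1.14 to 1.27) and an adjusted p of 1.38e-11 (two-sided Fisher's exact test, Benjamini-Hochberg over 3 pairs). For let-7a the odds ratio was 1.05 (0.907 to 1.21, adjusted p = 0.815 by Fisher's exact test) and for let-7f 1.00 (0.859 to 1.17, adjusted p = 1 by Fisher's exact test). The last intervals leave room for a shift in either direction, so equal shares were not shown. These tests compare the reads of 2 libraries, not conditions. Among the pairs of other families in the closing section, replicate 1 minus replicate 2 ran from -34.2 points for Mir24 to 4.57 for Mir128. A shift of the size seen for let-7c is thus not particular to that pair.

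**Figure D3:**
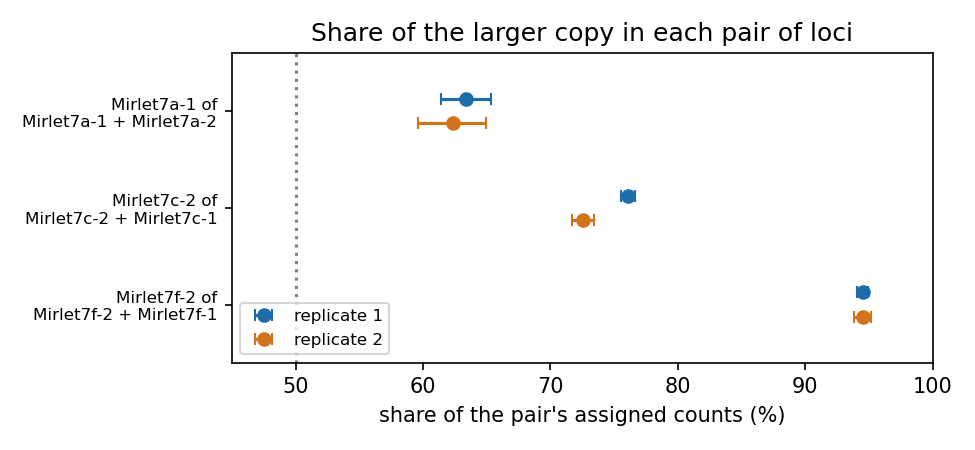
Share of the larger copy among the assigned counts of its pair, in percent on the x axis, with a point for each library and its exact 95% counting interval, and a dotted line at 50%. The let-7f pair sits at 94.5% in both libraries, the let-7c pair at 76.1% and 72.6%, and the let-7a pair at 63.4% and 62.3%.

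In each pair the larger copy was the one whose hairpin goes on with 2 uridines after the 5p arm, as the capitals in the lines above show. Mirlet7a-1, Mirlet7c-2 and Mirlet7f-2 had such a run of 2 uridines, while Mirlet7a-2 and Mirlet7c-1 had a run of 1 and Mirlet7f-1 had 0. This likeness was noticed after the counts were seen, and it rests on 3 pairs. The length and the end bases of the reads are not given in the count tables, so the part of these bases in the counts was not tested.

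Beside the let-7 genes with a 5p arm of their own, the 6 copies stood low but not lowest. The copies ranged from 107 to 3272 mean CPM. Mirlet7b, Mirlet7i, Mirlet7g, Mirlet7d and Mirlet7e ranged from 103556 ± 21543 down to 17437 ± 4515 CPM (SD, n = 2). Mir98, a let-7 family member 785 bases from Mirlet7f-2, had a mean of 2853 ± 360.4 CPM, between the means of Mirlet7c-2 and Mirlet7f-2, also per base of precursor (26.4 CPM per base, against 34.4 for Mirlet7c-2 and 22.2 for Mirlet7f-2). Its place against Mirlet7c-2 turned between the libraries, since Mirlet7c-2 had 3881 CPM and Mir98 2598 in replicate 1, and Mirlet7c-2 had 2663 CPM and Mir98 3108 in replicate 2. Mir7j, the gene of let-7j, stood at 17.9 ± 4.88 CPM and Mir7k, the gene of let-7k, had 5 counts in replicate 1 and 0 in replicate 2. The mature sequences of Mir7j and Mir7k were found in no other microRNA gene, and both genes lay below all 6 copies. The seed of let-7j is GAGGUAU, which differs by G8U from the seed GAGGUAG of the 6 copies. These values are a description of 14 genes that share libraries and depth, with no test.

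**Figure D4:**
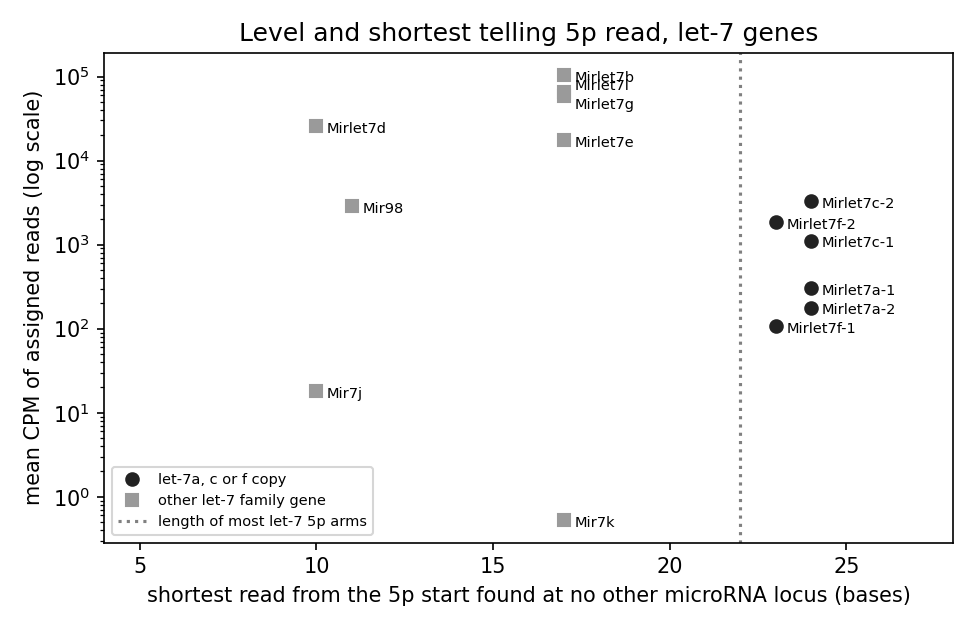
Mean level of 14 let-7 family genes in CPM on a log axis against the shortest read, in bases from the start of the 5p arm, that is found at no other microRNA locus. The 6 copies sit at 23 and 24 bases, right of the dotted line at 22 bases, with means between 107 and 3272 CPM, and the other genes sit at 10 to 17 bases.

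Each copy has a neighbour in its cluster, made from the same stretch of chromosome. On chromosome 13, Mirlet7a-1 and Mirlet7f-1 lie 261 bases apart and Mirlet7d lies 1714 bases beyond. Mirlet7a-1 had 1.15% of the level of Mirlet7d in replicate 1 and 1.21% in replicate 2, and Mirlet7f-1 had 0.432% and 0.402%. On chromosome 15, Mirlet7c-2 lies 621 bases from Mirlet7b and had 3.27% of its level in replicate 1 and 3.02% in replicate 2. In these clusters the percentages of both libraries lay near each other.

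In the other clusters the ratio to the neighbour differed more. On chromosome 16, Mirlet7c-1 lies 656 bases from Mir99a, a microRNA of the miR-99 and miR-100 family, and had 2.42% of its level in replicate 1 and 1.30% in replicate 2. On chromosome 9, Mirlet7a-2 lies 5211 bases from Mir100 and had 2.26% of its level in replicate 1 and 1.34% in replicate 2. Mirlet7f-2 had 79.8% of the level of Mir98 in replicate 1 and 51.9% in replicate 2. Farther off on chromosomes 9 and 16 lie Mir125b-1, 45114 bases from Mirlet7a-2, and Mir125b-2, 46522 bases from Mirlet7c-1. Mir125b-1 and Mir125b-2 themselves share a mature arm. Mirlet7a-2 had 10.5% of the level of Mir125b-1 in replicate 1 and 14.3% in replicate 2, and Mirlet7c-1 had 205% of the level of Mir125b-2 in replicate 1 and 254% in replicate 2.

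Between the libraries, 4 of the 6 copies were higher in replicate 1 and none was lower. With libraries scaled by TMM, which sets the scale from genes without extreme ratios, the log2 ratio (replicate 1 over replicate 2) was 0.42 for Mirlet7c-2, with a 95% counting interval of 0.38 to 0.46. It was 0.24 (0.19 to 0.29) for Mirlet7f-2, 0.24 (0.02 to 0.45) for Mirlet7f-1 and 0.15 (0.09 to 0.22) for Mirlet7c-1. Mirlet7a-1 at 0.06 (-0.06 to 0.19) and Mirlet7a-2 at 0.00 (-0.16 to 0.16, and -0.03 to 0.12 over the other scalings and filters) did not pass. The test was a two-sided exact binomial test with Benjamini-Hochberg adjustment over the 450 genes whose counts in both libraries add up to 20 or more, and a gene passed at an adjusted p under 0.05. Of these 450 genes, 144 (32.0%) were higher in replicate 1 and 148 (32.9%) were lower, 292 (64.9%) in all, so a call by itself is common between these libraries. At an unadjusted p under 0.05 the copies also counted 4 higher and 0 lower, beside 147 higher and 153 lower of the 450 genes. The median over the 6 copies was 0.20, beside -0.01 over all genes tested. The copies of a pair are not independent of each other, since they share sequence.

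Mirlet7f-1 passed at an adjusted p of 0.0431 by the exact binomial test and did not pass without the most abundant gene in the total (0.0768). Mirlet7a-1 passed where total counts (0.19, adjusted p = 0.00551), DESeq2 size factors or TMM factors over all genes set the scale. Total counts in place of TMM moved the median of all genes by 0.12 on the log2 scale. Markers of choroid plexus and ciliated cells also differed between the libraries. All 4 were detected, with a summed level of 3948 CPM in replicate 1 and 1186 in replicate 2. The 2 oligodendrocyte markers summed to 1911 CPM in replicate 1 and 3173 in replicate 2. Of these, Mir219a-2 was lower in replicate 1 (log2 ratio -1.17), and Mir338 did not pass (0.05). The 3 red blood cell markers summed to 290.0 CPM in replicate 1 and 722 in replicate 2. Of these, Mir451a was lower in replicate 1 (-1.73), and Mir144 (0.21) and Mir486 (0.17) did not pass, so each of these sums was lower through 1 marker. The neuronal markers, whose sums lay near each other, went both ways. Mir128-1 (1.42) and Mir137 (0.53) were higher in replicate 1. Mir138-1 (-1.50), Mir212 (-1.13), Mir132 (-0.80) and Mir124a-1 (-1.71, at 10 and 18 counts) were lower. The part of all these markers in the let-7 ratios was not tested, and in such bulk samples fewer cells of a type and less RNA per cell cannot be told apart.

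Neighbours in a cluster did not always share a direction. Mirlet7d (0.13) and Mirlet7b (0.31) were higher in replicate 1. Of the neighbours of Mirlet7d, Mirlet7f-1 was higher (0.24) and Mirlet7a-1 did not pass (0.06), and Mirlet7c-2 beside Mirlet7b was higher (0.42). Mir98 was lower in replicate 1 at -0.38 (-0.42 to -0.34), beside Mirlet7f-2 at 0.24. Mir99a was lower at -0.74 (-0.75 to -0.73), beside Mirlet7c-1 at 0.15, and Mir100 at -0.75 (-0.77 to -0.73), beside Mirlet7a-2 at 0.00. Mir125b-1 and Mir125b-2 were higher at 0.44 and 0.46. Among the other let-7 family genes tested, 3 of 7 were higher in replicate 1 and 4 lower, with a median of -0.15. The 3 higher ones were Mirlet7b, Mirlet7d and Mirlet7e (0.41). Mirlet7g (-0.15), Mirlet7i (-0.26), Mir7j (-0.68) and Mir98 were lower.

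**Figure D5:**
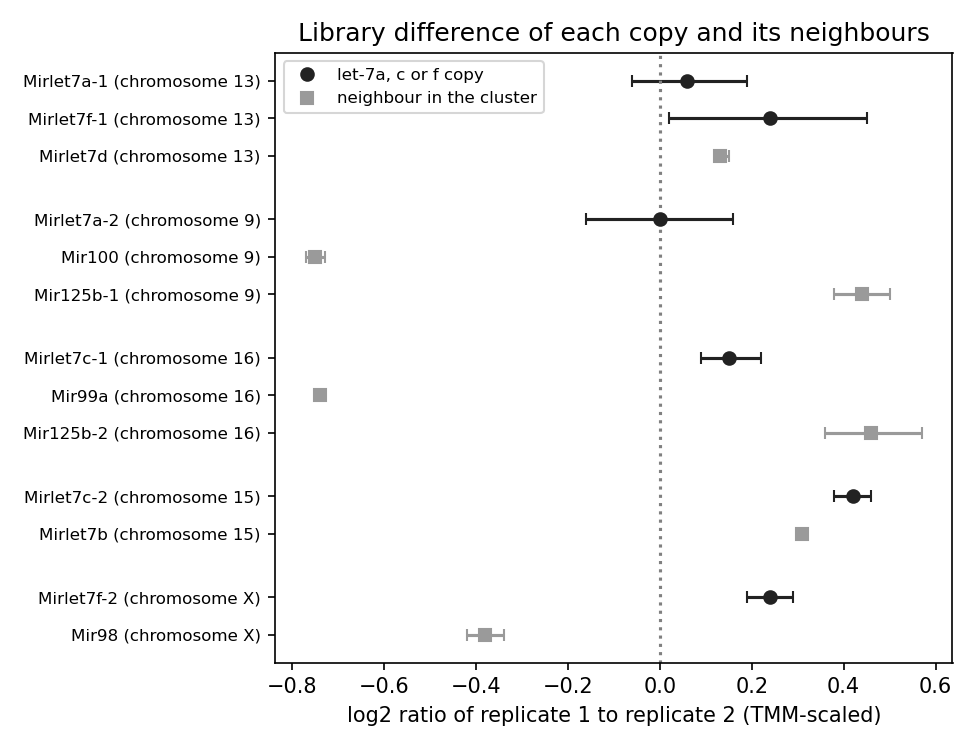
Log2 ratio of replicate 1 to replicate 2 on the x axis, TMM-scaled, for each let-7a, c or f copy (circles) and its cluster neighbours (squares), grouped by chromosome, with 95% counting intervals. Mirlet7c-2 and Mirlet7b lie at 0.42 and 0.31, while Mirlet7c-1 and Mir99a lie at 0.15 and -0.74 and Mirlet7f-2 and Mir98 at 0.24 and -0.38.

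The genes nearest to the copies in level, by Euclidean distance of log2(CPM + 1) over the 2 libraries among 409 detected genes, belonged to other families. Mirlet7c-1 was nearest to Mir134, at 1177 CPM in replicate 1 and 1018 in replicate 2, and Mirlet7f-1 to Mir376b at 122 and 96.8 CPM, both at a distance of 0.053. Mirlet7c-2 was nearest to Mir181d (distance 0.153), Mirlet7f-2 to Mir874 (0.15), Mirlet7a-1 to Mir3072 (0.166) and Mirlet7a-2 to Mir384 (0.131). With 2 libraries such a distance mainly reflects the level itself.

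The choice of strand column changed the counts of a single copy. The microRNA gene Gm24111 is annotated on the opposite strand over Mirlet7f-1. In the column that ignores strand, Mirlet7f-1 had 0 counts in both libraries, against 572 and 267 counts on its own strand, while the other 5 copies had the same counts in both columns. Their CPM still moved with the smaller total of that column, to a mean of 189.8 CPM for Mirlet7a-2, against 178 on its own strand.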

How the data were processed

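For each library the authors deposited a table of raw read counts over microRNA genes, on mm10 with GENCODE M21 per the accompanying text. Aligner and counter are not given in the sources used. Of the count columns, the strand with the larger gene total was used. The lines for unmapped, multi-mapping and unassigned reads stayed out of library sizes and tests, at 63.9% and 63.6% of all reads. All 2202 identifiers matched M21. The genes and lists were chosen with earlier results of these data known.

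TMM factors came from edgeR 4.0.16 under R 4.3.3 over genes whose counts add up to 20 or more. With 1 library per pool a quasi-likelihood fit has no residual degrees of freedom, so exact binomial tests were used. The code was run on simulated counts that varied by counting error only. Those counts held no variation between pools or preparations, so that run checks the code and does not bear on the calls made here. Named genes were the 6 copies, the other let-7 family genes, their cluster neighbours and each copy's nearest gene by level. Gm24111, the host genes and the families in the closing section were named after their values were seen. Sequences were compared with the 2202 precursors on both strands, leaving out overlapping genes. Alternatives covered scaling (DESeq2 1.42.0 size factors among them), filters, strand, denominators, stretch length and single libraries. Python 3.11.15, scipy 1.17.1 and pandas 2.3.3 were used.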

Additional observations from a re-analysis of the deposited data

How the results depend on the processing

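Mirlet7c-2, Mirlet7c-1 and Mirlet7f-2 kept their direction and their side of the threshold under all 8 alternatives, with log2 ratios of 0.40 to 0.54, 0.13 to 0.28 and 0.21 to 0.36. Mirlet7f-1 did so under 5 of 7, having no value without strand, and did not pass without the most abundant gene or at a threshold of 0.01. Mirlet7a-1 did so under 5 of 8, and passed under the 3 scalings named in its account. The causes were not tested. Genes higher and lower in replicate 1 numbered 168 and 127 with total counts, and stayed within 1.5 times of 144 and 148 under every alternative run. The order of the copies kept 6 of 6 places per base. Over all reads in place of assigned reads the copies summed to 2468 in place of 6814 CPM, by the larger denominator. Without strand, Mirlet7f-2 held 100% of its pair. Unshared stretches were 84.0% at 18 bases and 95.3% at 22. Leaving out a replicate gave 5829 to 7798 CPM for the copies together, and shares of 62.3% to 63.4%, 72.6% to 76.1% and 94.5% to 94.5%. TMM over all genes was added after seeing the data. No paired analysis was possible because there is 1 group. Depth limits Mirlet7f-1, with 267 counts in replicate 2, most among the copies.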

Other observations

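Other microRNA families with a mature sequence at several loci were also unequal between loci. Of 13 pairs outside let-7, 11 reached 100 counts in each library, and the larger copy's mean share ran from 62.3% for Mir24 to 99.0% for Mir181b, with a median of 74.9%. The larger copy was picked by the summed counts of these same libraries, so its lead over the other copy was largely set by that choice. Next above Mir24 came Mir29b at 63.4%. The let-7 pairs stood at 62.9%, 74.3% and 94.5%, so that let-7a lay by its mean below all of these pairs but Mir24. Against Mir29b this place turned between the libraries. Mir29b-2 held 58.8% (51.4 to 66.0) in replicate 1, where let-7a stood at 63.4%. In replicate 2 Mir29b-2 held 68.0% (61.0 to 74.5), where let-7a stood at 62.3%. The larger copy was the same in both libraries in 10 of the 11 pairs. The exception was Mir24, a microRNA of the miR-23 and miR-27 clusters, of which Mir24-1 held 45.2% (40.3 to 50.2) in replicate 1 and 79.4% (74.0 to 84.1) in replicate 2. Mir125b, whose copies lie in the let-7a-2 and let-7c-1 clusters, held 74.7% and 75.1% in Mir125b-1.

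Over the 32 genes of these families, 7 of 29 tested were higher in replicate 1 and 16 lower, with a median log2 ratio of -0.28, beside 32.0% and 32.9% of all 450 genes tested and a median of -0.01. The 6 let-7 copies had 4 higher and 0 lower by the same exact binomial test, with a median of 0.20. These are counts over genes that share sequence, and the lists were chosen with earlier results known.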
